A study of Mus musculus with 4 samples.

Results

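Among mouse inner ear organoid cells sorted from an Atoh1 reporter line, 175 of 15416 cells carried RNA of Car3, T and Lgals3 together. These member cells were chosen by 3 thresholds on their own RNA, 5 or more UMIs of Car3, 2 or more of Lgals3 and 1 or more of T, among barcodes with at least 1000 detected genes and at most 15% mitochondrial UMIs. Inner ear organoids are aggregates grown from embryonic stem cells toward otic tissue. All groups came from 1 line, Atoh1-nGFP ESC, in which nuclear GFP reports on Atoh1, a transcription factor that hair cells need to form. After dissociation and GFP sorting, 1 droplet library (10x Genomics) was made for day 21 cells of the GFP high gate, 1 for day 21 cells of the GFP low gate, 1 for day 20 and 1 for day 16. The labels name the GFP gate only for the day 21 libraries, and they describe single nuclei in 1 field and cells in another. No group has a second library, so no difference has a replicate check, no test was made, and every interval covers counting error only.

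The notochord is the rod of cells under the embryonic neural tube that secretes sonic hedgehog and patterns the tissues beside it. Its cells are marked by T (Brachyury), a T-box transcription factor that they need, and by Foxa2 and Shh. In the spine of later embryos the notochord becomes the nucleus pulposus of the intervertebral disc, whose notochordal cells are large and vacuolated, hold the simple keratins Krt8, Krt18 and Krt19, express Car3 and Lgals3, and make a matrix rich in type II collagen and aggrecan.

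Member cells were most frequent at day 20. They numbered 1 of 3496 cells at day 16, a share of 0.0286% (Clopper-Pearson 95% interval 0.000724 to 0.159), and 139 of 4553 at day 20, a share of 3.05% (2.57 to 3.59). At day 21 they numbered 13 of 3544 cells in the GFP high library, a share of 0.367% (0.195 to 0.626), and 22 of 3823 in the GFP low library, a share of 0.575% (0.361 to 0.870). The intervals of both day 21 libraries overlap, and that of day 20 lies above all others. The depths differ, with median UMIs per cell of 15571, 8966, 29146 and 22567 in the order of day 16, day 20, GFP high and GFP low. After every cell was thinned to 5000 UMIs, the shares were 0.0352%, 2.69%, 0.372% and 0.418% in the same order. Between 1 and 8 cell barcodes were shared by each pair of libraries, and none was a member's.

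Members were slightly deeper than other cells at day 20 and shallower at day 21, by median. Their median UMI count was 9718 at day 20, against 8947.5 in other cells, 17310 in GFP high, against 29201 in other cells, and 20679 in GFP low, against 22607 in other cells. The median mitochondrial share was 0.482% in day 20 members and 0.946% in other cells, 1.65% in GFP high members and 5.07% in other cells, and 1.31% in GFP low members and 3.45% in other cells. Of the 175 members, 18 also carried much RNA of another cell type, set as 100 or more UMIs of Ccer2, or 20 or more of Tubb3 or Otof, a definition made after the values were seen. They were the day 16 member, 13 members at day 20 and 4 in GFP low, and their median UMI count was 22855, against 10476 in the other members. Scrublet, a doublet caller, placed 11 of the 18 among the highest scores of their libraries. Values without these cells are given beside some of the genes and lists described. Counts given without such a value can also change when these cells are left out. Whether these cells are doublets was not tested.

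The 3 genes of the rule are a description only. Car3 (chromosome 3, 14863512 to 14872523, + strand, GRCm38) encodes a cytosolic carbonic anhydrase, and its summed level, in counts per 1000000 UMIs of the same cells (CPM), was 5304 in day 20 members and 6.96 in other cells, 10931 in GFP high members and 2.54 in other cells, and 4017 in GFP low members and 18.3 in other cells. T (chromosome 17, 8434423 to 8442496, + strand) had 901 CPM in day 20 members and 9.48 in other cells, 1384 in GFP high members and 0.0531 in other cells, and 922 in GFP low members and 1.67 in other cells. Lgals3 (chromosome 14, 47367751 to 47386160, + strand), a galectin, had 2170 CPM in day 20 members and 58.7 in other cells, 3980 in GFP high members and 9.58 in other cells, and 1089 in GFP low members and 16.0 in other cells. Per cell, the GFP high members sat far from every threshold, with 93 to 358 UMIs of Car3, 15 to 36 of T and 44 to 148 of Lgals3. The day 20 members reached down to the thresholds, with 5 to 375 UMIs of Car3, a median of 44, and 1 to 36 of T, a median of 9. GFP low members spread as widely, from 5 to 342 UMIs of Car3 and from 1 to 50 of T.

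Some cells fell outside the Car3 threshold alone. They were picked for T and Lgals3, so that they hold these is no finding. At day 20, 32 cells met the T and Lgals3 conditions with 4 or fewer UMIs of Car3, 25 of them with none, and their medians were 7 UMIs of T and 52.5 of Spp1. The 19 day 20 members with 5 to 9 UMIs of Car3 had medians of 7 UMIs of T and 62 of Spp1. Krt19 had a UMI in 16 of the 19 cells inside and in 21 of the 32 cells outside. Another 9 day 20 cells lacked only Lgals3 and 2 lacked only T. In GFP low the 9 cells short only of Car3 had medians of 10 UMIs of T and 6 of Spp1, against 32.5 and 13.5 in the 4 members with 5 to 9 UMIs of Car3. There 1 cell lacked only Lgals3 and 2 lacked only T, while in GFP high 1 cell lacked only Car3 and it held 287907 UMIs.

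**Figure D1:**
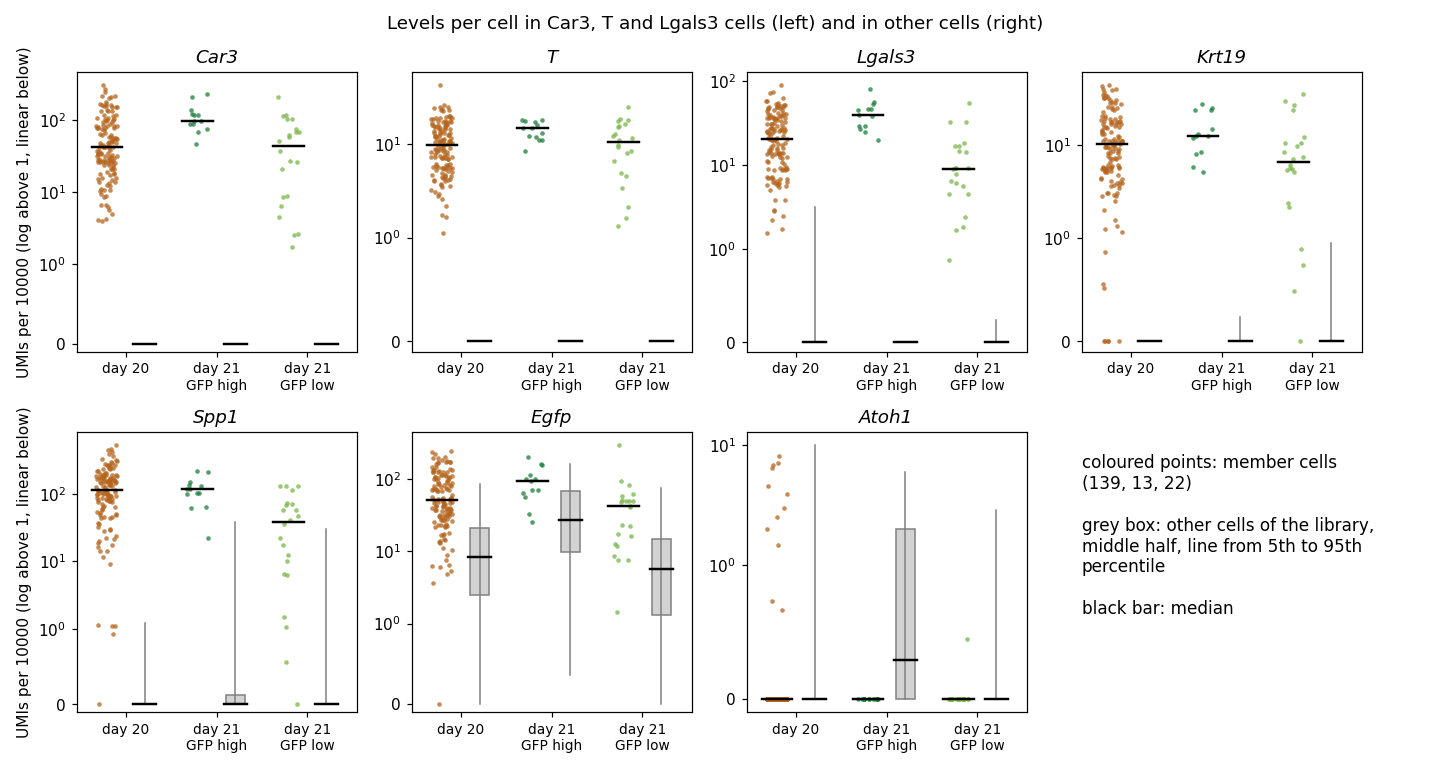
UMIs per 10000 UMIs of the cell (log scale above 1, linear below) for 7 genes in 3 libraries (day 20, GFP high and GFP low), with members as coloured points at the left and other cells as a grey box at the right (box, 25th to 75th percentile; line, 5th to 95th percentile; black bar, median). Krt19, which the rule did not use, has a UMI in 134 of 139, 13 of 13 and 21 of 22 members, and Atoh1 is at 0 in most members although Egfp is high. The Atoh1 median of other cells is also 0 at day 20 and in GFP low, and 0.294 in GFP high.

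Genes were called higher or lower in members where the ratio of CPM + 1 over other cells of the same library reached 2-fold either way, among genes that reached 10 CPM in members or in other cells. At day 20, 556 of 9380 genes were higher, a background of 5.93%, and 1791 were lower, 19.1%. With TMM scaling of the sums, 745 were higher and 1351 lower at day 20. In GFP high, with 13 members, 1317 of 10426 genes were higher, 12.6%, and 3659 were lower, 35.1%. In GFP low 790 of 10645 genes were higher, 7.42%, and 1937 were lower, 18.2%. Each count of higher or lower genes in a list below is to be read against these shares of its library. The median log2 ratio over all genes tested was −0.25 for day 20, −0.41 for GFP high and −0.20 for GFP low. For comparison, other cells were gated by 2 genes each as hair cells (2 or more UMIs of Pou4f3 and of Myo7a), basal keratin cells (5 or more of Krt5 and 1 or more of Trp63), cartilage and otic cells (2 or more of Cnmd and of Oc90), mesenchyme (5 or more of Col1a1 and of Col3a1) and neurons (5 or more of Stmn2 and of Tubb3). The cartilage and otic cells are named for their 2 gate genes, each cell holds both, and they were not shown to be cartilage. At day 16 Epcam, a gene of the otic list here, had a UMI in 100% of the 33 such cells, at 1251 CPM. Of 8480 genes tested in all 3 libraries, 266 were higher in each, which is 47.8% of the day 20 list, 20.2% of the GFP high list and 33.7% of the GFP low list.

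The regulators and signals of the notochord other than T were mostly higher in members, with 7 of 10 tested genes higher and none lower at day 20, at a median log2 ratio of 2.39. In GFP high 9 of 11 were higher and 1 was lower, at a median of 3.03. In GFP low 4 of 11 were higher and 1 was lower, at a median of 0.94, and without the 4 members that carried RNA of another type 7 of 11 were higher and 2 lower, at a median of 1.35. These counts stand against the 5.93%, 12.6% and 7.42% of all genes that were higher. The floor plate, the ventral strip of the neural tube above the notochord, shares Shh, Foxa1 and Foxa2 with that list. Of the floor plate list, 4 of 6 genes were higher and 2 lower at day 20, 4 of 4 were higher in GFP high, and 4 of 5 were higher and 1 lower in GFP low, at medians of 3.87, 5.74 and 3.93. The 4 were Shh, Foxa1, Foxa2 and Lmx1a in each library. Shh, Foxa1 and Foxa2 were under 10 CPM in other cells of each library, so they were tested only because members reached it. The counts of both lists therefore lean toward higher and are a description only. With no CPM minimum the median of the floor plate list in GFP low was −0.0018.

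Shh (chromosome 5, 28456815 to 28467256, − strand), the hedgehog ligand that the notochord secretes, had 76.2 CPM in day 20 members and 2.36 in other cells, a ratio of 32.2 (exact 95% interval 24.6 to 42.4). It had 395 CPM in GFP high members and 0.929 in other cells, and 132 CPM in GFP low members and 1.23 in other cells. Shh was unevenly spread over cells, with a UMI in 59 of 139, 10 of 13 and 11 of 22 members, and 1 cell gave 40.2% of the Shh UMIs of the GFP high members and 39.1% of those of the GFP low members. Foxa1, a forkhead factor, had 39.7 CPM in day 20 members and 0.878 in other cells. It had 118 CPM in GFP high members and 0.0973 in other cells, and 69.1 CPM in GFP low members and 0.657 in other cells. Its relative Foxa2, the forkhead factor by which the early notochord is usually known, was low in members too, at 11.7 CPM in day 20 members and 0.293 in other cells. The day 21 levels were 16.3 CPM in GFP high members and 0.310 in other cells, and 11.5 CPM in GFP low members and 0.971 in other cells. The Foxa2 values rest on 18, 4 and 6 UMIs. A UMI of Shh, Foxa1 or Foxa2 was found in 84 of 139 members at day 20, in 12 of 13 in GFP high and in 14 of 22 in GFP low.

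Noto, a homeobox gene of the node and early notochord, had no UMI in any member or any other cell, and a count of 0 allows up to 1.95 CPM in the day 20 members, 12.2 in the GFP high members and 5.76 in the GFP low members. Sox9, a regulator of cartilage and of the notochord sheath, had 93.1 CPM in day 20 members and 43.2 in other cells, a ratio of 2.15 (1.80 to 2.55). It had 440 CPM in GFP high members and 177 in other cells, and 386 CPM in GFP low members and 214 in other cells, where the ratio of 1.80 did not pass the call but the 492 CPM of the 18 members without RNA of another type did. Sox6, which works with Sox9 in cartilage and in the notochord sheath, had 29.96 CPM in day 20 members and 2.21 in other cells, and 48.8 CPM in GFP high members and 14.1 in other cells, while its 26.9 CPM in GFP low members and 12.98 in other cells passed the call only without those 4 members, at 37.4 CPM. Bicc1, an RNA-binding protein of the node, had 159 CPM in GFP high members and 11.8 in other cells, and 163 CPM in GFP low members and 12.0 in other cells, but at day 20 its 72.9 CPM in members and 51.5 in other cells did not differ by the fold required. Nog, a BMP antagonist of the notochord, was higher at day 20, at 18.9 CPM in members and 5.99 in other cells, and had no UMI in the GFP low members, against 10.1 CPM in other cells of GFP low. Foxj1, the regulator of motile cilia, had 4.07 CPM in GFP high members and 147 in other cells.

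Promoters are shown because T and forkhead factors are measured in these cells and their binding words can be looked for in genes that were high. Of the rule genes, the 25 leading genes and Shh, Foxa1, Foxa2 and Sox9, 22 had a window in the RefSeq table for GRCm38.p6, running from 250 bases before to 50 after a gene start. The T-box word TCACACC, or GGTGTGA on the other strand, stood in 1 of their 31 windows, that of Ctsc, and in 3.98% of all 32851 windows. The forkhead word TGTTTAC, or GTAAACA, stood in 1 of the 31, that of Foxa1, and in 3.65% of all windows. The windows of T (chr17:8434173-8434472, + strand), Foxa1 (chr12:57546062-57546361, − strand) and Ctsc (chr7:88277835-88278134, + strand) are printed 5′ to 3′, with the matched word in capitals, and that of T holds neither word.
T: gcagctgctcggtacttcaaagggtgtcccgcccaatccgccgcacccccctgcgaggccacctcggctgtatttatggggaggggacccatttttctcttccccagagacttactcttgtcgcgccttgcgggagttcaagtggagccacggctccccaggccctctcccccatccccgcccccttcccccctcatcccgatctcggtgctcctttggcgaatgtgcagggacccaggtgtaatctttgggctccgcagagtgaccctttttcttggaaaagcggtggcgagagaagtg
Foxa1: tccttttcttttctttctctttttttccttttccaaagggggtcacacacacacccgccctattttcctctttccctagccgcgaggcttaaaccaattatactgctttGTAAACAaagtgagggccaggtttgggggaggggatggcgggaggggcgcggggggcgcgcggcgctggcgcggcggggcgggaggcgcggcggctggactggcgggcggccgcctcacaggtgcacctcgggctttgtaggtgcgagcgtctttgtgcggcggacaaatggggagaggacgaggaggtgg
Ctsc: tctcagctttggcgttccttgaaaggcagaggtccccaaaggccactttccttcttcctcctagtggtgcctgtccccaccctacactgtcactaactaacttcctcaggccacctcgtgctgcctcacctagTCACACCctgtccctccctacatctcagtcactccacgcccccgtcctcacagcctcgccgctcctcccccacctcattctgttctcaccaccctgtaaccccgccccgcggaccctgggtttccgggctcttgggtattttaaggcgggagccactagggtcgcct
A match is a description of the letters and not of binding, which was not measured.

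Krt19 (chromosome 11, 100140810 to 100148665, − strand) was high in members of every library and encodes the simple keratin that partners Krt8. It had 1074 CPM in day 20 members and 7.14 in other cells, a ratio of 150 (133 to 170). It had 1481 CPM in GFP high members and 9.58 in other cells, a ratio of 155 (137 to 174), and 745 CPM in GFP low members and 23.0 in other cells, a ratio of 32.3 (29.0 to 36.0). With cells thinned to 5000 UMIs a Krt19 UMI was found in 93.2% of day 20 members and 1.26% of other cells, while unthinned it was found in 96.4% of members, at a median of 9718 UMIs a cell, and in 0 of 66 gated hair cells and 1.10% of neurons, at medians of 17963 and 14446 UMIs. The other simple keratins did not share this difference. Krt8 had 302 CPM in day 20 members and 282 in other cells. Its day 21 levels were 346 CPM in GFP high members and 145 in other cells, and 94.1 CPM in GFP low members and 267 in other cells, so it was higher in GFP high, lower in GFP low and neither at day 20. Krt18 had 197 CPM in day 20 members and 189 in other cells. At day 21 its levels were 130 CPM in GFP high members and 201 in other cells, and 109 CPM in GFP low members and 351 in other cells, the last of these lower. Over all 12 keratins listed, Krt19 alone was higher at day 20 and in GFP low, where 4 of 9 and 6 of 8 tested were lower (6 of 9 at day 20 without the 13 members with RNA of another type), and Krt19 and Krt8 were higher in GFP high, where 4 of 8 were lower. Those 4 had no UMI in the GFP high members. With zeros set at 3 UMIs, the median log2 ratio of the list in GFP high went from −2.74 to −0.91.

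The structural list of the notochord and nucleus pulposus was split, with 5 of 14 genes higher and 4 lower at day 20, 5 of 13 higher and 3 lower in GFP high, and 3 of 14 higher and 4 lower in GFP low. The median log2 ratios were 0.08, 0.47 and 0.23. Spp1 (osteopontin, a secreted phosphoprotein of bone and other matrices) was higher in each library, at 12140 CPM in day 20 members and 137 in other cells. It had 11749 CPM in GFP high members and 495 in other cells, and 3737 CPM in GFP low members and 448 in other cells. Cd24a, a surface glycoprotein used to sort nucleus pulposus cells, had 612 CPM in day 20 members and 158 in other cells. In the day 21 libraries it had 1038 CPM in GFP high members and 354 in other cells, and 626 CPM in GFP low members and 469 in other cells, which misses the call. Acan, the aggrecan gene, was nearly missing, with 10 UMIs in 4 of the 139 day 20 members and none at day 21. Car12, a carbonic anhydrase of nucleus pulposus cells, had 3.91 CPM in day 20 members and 16.5 in other cells. At day 21 it had 4.07 CPM in GFP high members and 149 in other cells, and 15.4 CPM in GFP low members, or 5.35 without the 4 members with RNA of another type, and 181 in other cells, lower in each. T, Car3 and Lgals3 chose the cells and so give no check of the name notochord-like. Of the genes that the choice did not use, Shh, Foxa1, Foxa2 and Krt19 were higher in each library, while Krt18 was higher in none and Krt8 in 1. Noto, with no UMI in any cell, and Acan, with 10 UMIs in day 20 members, could not be called higher at these counts.

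**Figure D2:**
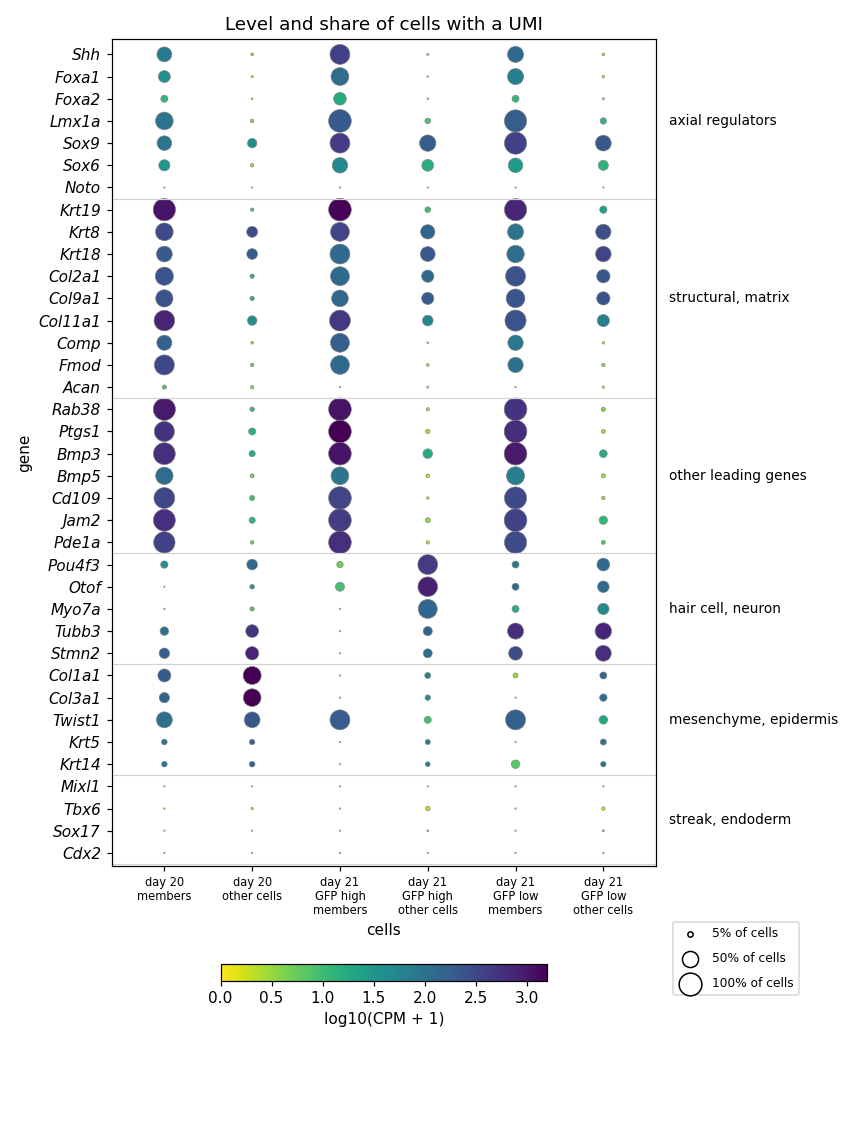
Summed level (colour, log10 of CPM + 1) and share of cells with a UMI (dot size) for 37 genes in members and in other cells of 3 libraries, in groups by role. Rab38, Ptgs1, Bmp3 and Krt19 are high in the members of every library and low in other cells, while Noto is at 0 throughout and Acan is at 0 in members at day 21.

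Cartilage matrix genes were high in day 20 members, with 6 of 10 tested genes higher, none lower and a median log2 ratio of 3.85. Col2a1, the type II collagen of cartilage and notochord, had 235 CPM in day 20 members and 11.7 in other cells, a ratio of 20.1 (17.5 to 23.1). Col9a1, its type IX partner, had 248 CPM in day 20 members and 12.8 in other cells. In day 21 libraries Col2a1 and Col9a1 were called in neither direction. Col2a1 had 130 CPM in GFP high members and 134 in other cells, and 248 CPM in GFP low members and 214 in other cells. The other cells there include 278 and 302 gated on Cnmd and Oc90, and whether these set the level of other cells was not tested. Col11a1, the type XI collagen, had 757 CPM in day 20 members and 40.1 in other cells. It had 476 CPM in GFP high members and 50.6 in other cells, and 240 CPM in GFP low members and 68.6 in other cells. Comp, a matrix protein of cartilage and tendon, had 169 CPM in day 20 members and 2.004 in other cells. The day 21 levels were 175 CPM in GFP high members and 0.0885 in other cells, and 78.7 CPM in GFP low members and 0.586 in other cells. Those 2 were higher in each library, and in day 21 libraries they were the only cartilage genes that were, with 2 of 8 higher and 3 lower in GFP high and 2 of 9 higher and 2 lower in GFP low. Fmod (fibromodulin), a small proteoglycan that binds collagen, had 324 CPM in day 20 members and 4.89 in other cells. Its day 21 levels were 130 CPM in GFP high members and 1.17 in other cells, and 109 CPM in GFP low members and 2.51 in other cells. Its relative Prelp had 117 CPM in day 20 members and 2.90 in other cells.

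The 25 leading genes, those with the highest ratio at day 20 among genes at 50 CPM or more and found in 50% or more of members, were named by rank, so their height at day 20 is no finding. In the day 21 libraries, which did not rank them, 22 of the 25 were higher in members in both, and the exceptions were Hapln1, Col2a1 and Col9a1. Rab38, a small GTPase of lysosome-related organelles, had 966 CPM in day 20 members and 9.97 in other cells. At day 21 its levels were 1099 CPM in GFP high members and 1.58 in other cells, and 532 CPM in GFP low members and 2.96 in other cells. Ptgs1, the cyclooxygenase of prostaglandin synthesis that is not induced, had 544 CPM in day 20 members and 14.5 in other cells. It had 1815 CPM in GFP high members and 1.71 in other cells, and 630 CPM in GFP low members and 2.05 in other cells. Pde1a, a phosphodiesterase activated by calcium and calmodulin, had 371 CPM in day 20 members and 3.85 in other cells. In the day 21 libraries it had 594 CPM in GFP high members and 0.973 in other cells, and 303 CPM in GFP low members and 7.02 in other cells. Rab38 had a UMI in 133 of 139, 13 of 13 and 22 of 22 members. The surface genes Jam2, an adhesion molecule of cell junctions, and Cd109, which binds TGF-beta, had 583 and 328 CPM in day 20 members, against 11.8 and 8.85 in other cells, and 376 and 319 CPM in GFP low members, against 11.4 and 2.02 in other cells. Itgbl1, Cmbl, Stk26, Isg20, Cdh6, Arhgef16, Gm45716 and Ctsc made up the rest with Bmp3, Bmp5, Lmx1a and Serpina1e. Serpina1e, a gene of the alpha-1-antitrypsin family, had 294 CPM in day 20 members and 1.17 in other cells. At day 21 it had 676 CPM in GFP high members and 0.0531 in other cells, and 198 CPM in GFP low members and 0.0708 in other cells. The mouse holds near-identical copies of it, so which copy was counted is uncertain.

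Against each of 5 other gated populations, 236 genes at day 20 and 295 in GFP low were higher in members than in hair cells, basal keratin cells, cartilage and otic cells, mesenchyme and neurons alike, and 129 genes were in both sets. Against single populations 8586 to 9660 genes were tested at day 20, and 772 to 1610 of them were higher in members. In GFP low 9965 to 10497 were tested, and 1207 to 1938 were higher. Of the 25 leading genes 21 were among the 129. The day 20 populations are part of the other cells that ranked the 25, so the day 20 side is no finding. In GFP low, which did not rank them, 21 of the 25 were higher than in each population. Of these 5 populations basal keratin cells held the most Lgals3, at 271 CPM at day 20, where members had 2170, and they also held Rab38 at 46.3 CPM, where members had 966. Cartilage and otic cells shared some collagens and Lmx1a, a LIM-homeobox factor of the roof plate and the ear, but held no UMI of Comp and 5.31 CPM of Hapln1, where day 20 members had 169 and 208. At day 20 Lmx1a had 93.1 CPM in members and 42.5 in cartilage and otic cells, while Col9a1 had 248 CPM in members and 537 in cartilage and otic cells. T had 901 CPM in day 20 members and was at 0 in the 28 cartilage and otic cells, and it had 5.79 CPM in hair cells, 5.48 in basal keratin cells, 1.92 in mesenchyme and 0.814 in neurons. T and Lgals3 chose the members, so their differences from these populations are a description only.

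Signalling genes differed in both directions. Of the BMP and TGF-beta genes, Bmp5 was higher in each library and Bmp3, outside that list, likewise, at 567 CPM in day 20 members and 17.1 in other cells. It had 1066 CPM in GFP high members and 16.8 in other cells, and 937 CPM in GFP low members and 15.7 in other cells. Bmp4, a ligand, had 32.6 CPM in GFP high members and 5.54 in other cells, and 44.2 CPM in GFP low members and 8.50 in other cells, and did not differ by the fold required at day 20. The BMP target Id1 had no UMI in the GFP high members, against 121 CPM in other cells, at least 9.90-fold lower when 3 UMIs are set for the members, and 23.0 CPM in GFP low members and 145 in other cells, but 54.7 CPM in day 20 members and 25.1 in other cells, where it was called higher. That call is lost without the 13 day 20 members with RNA of another type, at 48.0 CPM, and 28.6% of the day 20 members' Id1 UMIs came from 1 cell. Over the list 4 of 13 were higher and 4 lower at day 20, 6 and 6 of 13 in GFP high, and 5 and 7 of 14 in GFP low.

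Genes that release or receive the hedgehog signal were called in both directions. Ptch1, receptor and target of the pathway, had 19.5 CPM in day 20 members and 31.3 in other cells. The day 21 levels were 24.4 CPM in GFP high members and 28.5 in other cells, and 74.9 CPM in GFP low members and 33.6 in other cells, the last called higher with 48.7% of its UMIs in 1 cell. Gli1, the transcription factor that the signal induces, had 5 UMIs in day 20 members and none in day 21 members. The list of the pathway, Shh included, had 2 of 8 genes higher and 4 lower at day 20, 3 higher and 1 lower of 8 in GFP high, and 5 higher and 2 lower of 8 in GFP low. Beside Shh the higher ones were Disp1, which releases the ligand, at day 20, Gli3 and Cdon in GFP high, and Ptch1, Gli3, Smo and Disp1 in GFP low. Of Wnt and FGF genes, Wnt5a, a ligand of the non-canonical Wnt pathway, was higher in each library, at 181 CPM in day 20 members and 52.3 in other cells. Its day 21 levels were 273 CPM in GFP high members and 42.4 in other cells, and 140 CPM in GFP low members and 54.7 in other cells. The list had 3 of 10, 2 of 9 and 2 of 11 genes higher and 5, 6 and 5 lower at day 20, GFP high and GFP low. Of all genes tested, 5.93%, 12.6% and 7.42% were higher and 19.1%, 35.1% and 18.2% lower.

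Most members held reporter RNA without detected Atoh1 RNA. Egfp had 6985 CPM in day 20 members and 2466 in other cells, a ratio of 2.83 (2.78 to 2.89), 9291 CPM in GFP high members and 4814 in other cells, a ratio of 1.93 (1.85 to 2.01) that does not pass the call, and 3633 CPM in GFP low members and 1291 in other cells, a ratio of 2.81 (2.69 to 2.95). Atoh1 had 57.3 CPM in day 20 members, or 1.66 without the 13 members with RNA of another type, and 158 in other cells, no UMI in GFP high members and 144 CPM in other cells, and 1.92 CPM in GFP low members, from 1 UMI in a member with RNA of another type, and 34.5 in other cells. It was lower in each library, at least 11.8-fold in GFP high when 3 UMIs are set for the members.

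Cell by cell, Atoh1 had no UMI in 127 of 139 members at day 20, in 13 of 13 in GFP high and in 21 of 22 in GFP low. Most other cells of day 20 lacked it too, with an Atoh1 UMI in 22.7% of them. The median of other cells was 0 at day 20 and in GFP low, and 0.294 UMIs per 10000 in GFP high. Of the 13 members with an Atoh1 UMI, 10 also had 100 or more UMIs of Ccer2, a gene that the Merkel cell list here holds, and without the members that carried RNA of another type Atoh1 was at 0 in 124 of 126 day 20 members and in 18 of 18 GFP low members. Among members with no Atoh1 UMI, 116, 13 and 19 had 10 or more UMIs of Egfp at day 20, GFP high and GFP low. The median Egfp level was 51.6 UMIs per 10000 in day 20 members and 36.1 in the 66 hair cells of that library, 93.0 in GFP high members and 23.8 in 2310 hair cells, and 41.8 in GFP low members and 6.78 in 767 hair cells. Hair cells with no Atoh1 UMI, 31, 810 and 570 of them, had medians of 17.4, 10.99 and 6.38. Egfp without an Atoh1 UMI was also common in other populations: at day 20, 20 of 28 cartilage and otic cells, 701 of 2137 mesenchyme cells and 279 of 543 neurons had 10 or more UMIs of Egfp and none of Atoh1.

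Other gated populations ranged widely in the reporter. The median Egfp level was 0.0809 per 10000 in the 56 basal keratin cells of GFP high and 0 in the 61 mesenchyme cells of GFP high, 1.03 in the 110 basal keratin cells of day 20, and 0 in the 80 basal keratin cells of GFP low. It reached 38.4 in the 240 neurons and 29.0 in the 278 cartilage and otic cells of GFP high. Members were above each of these medians. The share of cells that are members was 0.367% in GFP high and 0.575% in GFP low, with overlapping intervals. GFP protein was not measured in these files, and why Egfp was present without Atoh1 was not tested.

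**Figure D3:**
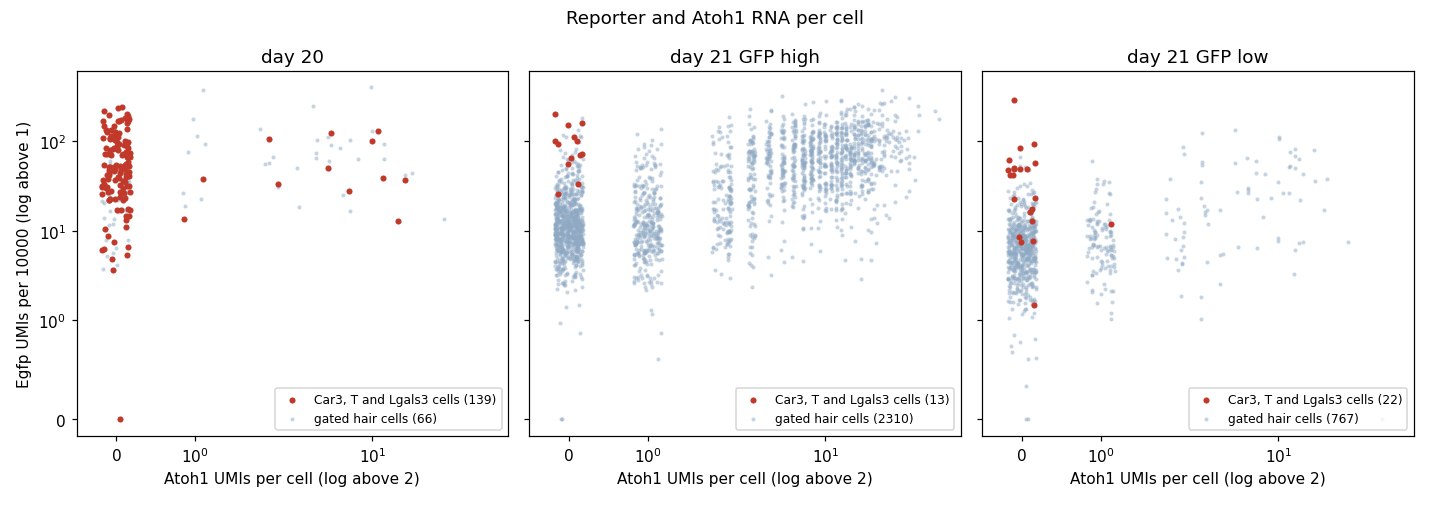
Egfp level (UMIs per 10000, log scale above 1) against Atoh1 UMIs (log scale above 2, points jittered) per cell at day 20, GFP high and GFP low, with members in red and gated hair cells in blue. Members stand at 0 Atoh1 UMIs in 127 of 139, 13 of 13 and 21 of 22 cells, and in GFP high their median of 93.0 lies above the 23.8 of hair cells.

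Genes of the sorted lineage and of other cell types were mostly lower in members. Of the hair cell list, 11 of 12 tested genes were lower at day 20, 16 of 16 in GFP high and 10 of 15 in GFP low, with none higher. Of all genes tested, 19.1%, 35.1% and 18.2% were lower in the same order, and the lists that follow stand against the same shares. In GFP high 3 UMIs of the members stand for 12.2 CPM, above the 10 CPM needed for testing. A gene at 0 there can thus be called lower although the members could not show the difference. Otof, the synaptic protein of hair cells, had 119 CPM in GFP low members and 134 in other cells, with all of its 62 UMIs in 2 cells, and without the 4 members that carried RNA of another type 15 of 15 hair cell genes were lower. In GFP high Otof had 8.14 CPM in members and 798 in other cells. The summed level of the list was 376 CPM in day 20 members, or 147 without the 13 members with RNA of another type, and 1643 in other cells, 179 in GFP high members and 7033 in other cells, and 878 in GFP low members and 2202 in other cells, or 139 in GFP low without those 4 members.

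Neuron genes were lower in 12 of 12 at day 20, in 12 of 12 in GFP high, with 9 at 0, and in 5 of 12 in GFP low, or 12 of 12 without those 4 members. Of the supporting cell list 4 of 5 genes tested were lower at day 20, 9 of 11 in GFP high and 9 of 11 in GFP low. In GFP high 7 of the genes listed had no UMI in members. With zeros set at 3 UMIs, the median log2 ratio of that list in GFP high went from −3.94 to −0.96. Sparcl1, a secreted matrix protein on that list, was higher in all 3 libraries and had 260 CPM in day 20 members and 52.0 in other cells. At day 21 its levels were 578 CPM in GFP high members and 45.2 in other cells, and 440 CPM in GFP low members and 76.7 in other cells. The otic list had 6 of 8, 8 of 9 and 9 of 11 genes lower and only Lmx1a higher.

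Mesenchyme genes differed between the libraries. At day 20, where 2137 other cells were gated as mesenchyme, 8 of 10 genes were lower in members and none was higher, and Twist1 passed that call only with the 13 members with RNA of another type. In GFP high 5 of 8 were higher and 2 lower, and in GFP low 2 of 8 were higher and 3 lower. Col1a1, the type I collagen of connective tissue and bone, was lower in each library, at 189 CPM in day 20 members and 2060 in other cells, no UMI in GFP high members and 55.2 CPM in other cells, and 1.92 CPM in GFP low members and 142 in other cells. Twist1, a transcription factor of mesenchyme, had 104 CPM in day 20 members and 216 in other cells. It had 187 CPM in GFP high members and 8.67 in other cells, and 173 CPM in GFP low members and 19.5 in other cells. Its level in members thus stayed between 104 and 187 CPM while that of the other cells differed by far more.

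Epidermal genes were lower in 4 of 10 at day 20, or 7 of 10 without the 13 members with RNA of another type, 7 of 10 in GFP high and 7 of 9 in GFP low. Trp63, the regulator of basal epithelium, was called higher at day 20, at 63.2 CPM in members and 8.33 in other cells, but 22 of 139 members held its UMIs and 1 cell gave 28.9% of them. It had 4.07 CPM in GFP high members and 3.88 in other cells, and none in GFP low members. Merkel cell genes, which include Atoh1, Krt8 and Krt18, were lower in 7 of 10 at day 20, 5 of 7 in GFP high and 7 of 8 in GFP low, with Krt8 higher in GFP high. Without the members with RNA of another type, 8 of 10 were lower at day 20 and 8 of 8 in GFP low.

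Defining genes of further cell types were at or near 0. No member of the 3 libraries held a UMI of any of 7 endothelial genes, and none of the day 21 members held one of 12 macrophage and blood genes, of which 10 were at 0 in day 20 members. These genes were also rare in other cells. At day 20, GFP high and GFP low the endothelial genes summed to 2.95, 3.21 and 9.09 CPM there, with none tested. The macrophage and blood genes summed to 17.6, 7.10 and 5.65 CPM, with 1, 0 and 0 tested. Their zeros therefore do not set members apart. Of 11 genes of the primitive streak and early mesoderm, 8, 11 and 8 were at 0 in the members of day 20, GFP high and GFP low. Only 2 of the 11, Fgf8 and Lhx1, were tested in each library, and they were lower. Of 12 genes of endoderm, 10, 10 and 8 were at 0, and Foxa2 was the one gene tested and higher. Foxa2 was under 10 CPM in other cells, so it was tested only through the members.

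Levels of members in different libraries are given side by side with no call, since GFP high holds 13 members and day 16 holds 1. Hapln1, a link protein of cartilage matrix, had 208 CPM in day 20 members, 4.07 in GFP high members and 5.76 in GFP low members, the day 21 values being 1 and 3 UMIs. The day 16 member held 30 UMIs of Hapln1 among its 44455. Ptgs1 had 544 CPM in day 20 members, 1815 in GFP high members and 630 in GFP low members, and Fmod had 324, 130 and 109 CPM in the same order.

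Hox genes, which mark position along the body axis, were higher in members in 2 of 2 tested at day 20, in 7 of 7 in GFP high and in 6 of 9 in GFP low, where 1 was lower. The list summed to 21.1, 46.8 and 141 CPM in other cells in the same order. A gene low in other cells was tested only where members reached 10 CPM, which nearly fixed a call of higher. These counts are thus a description only. The Hoxb1 call in GFP low rests on 7 UMIs of 1 cell with RNA of another type. Of the 23 genes of the list, which also holds Cdx1, Cdx2 and Cdx4, 11, 11 and 8 were at 0 in members, those 3 among them. Hoxa5 had 9.12 CPM in day 20 members and 0.450 in other cells, and was called higher without the 13 members with RNA of another type, at 10.8 CPM. In the day 21 libraries it had 102 CPM in GFP high members and 1.66 in other cells, and 99.8 CPM in GFP low members and 11.8 in other cells. Hoxa7 had 2.61 CPM in day 20 members and 1.22 in other cells. At day 21 it had 179 CPM in GFP high members and 2.31 in other cells, and 86.4 CPM in GFP low members and 5.21 in other cells. Hoxa9, a more posterior gene, had 0.651 CPM in day 20 members and 1.13 in other cells. It had 61.0 CPM in GFP high members and 1.88 in other cells, and 30.7 CPM in GFP low members and 3.81 in other cells. Day 21 members of both gates thus held more Hoxa7 and Hoxa9 RNA than day 20 members, which with 1 library a group cannot be told apart from a difference between cultures. The Hoxa9 value of GFP low rests on 16 UMIs in 4 cells.

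**Figure D4:**
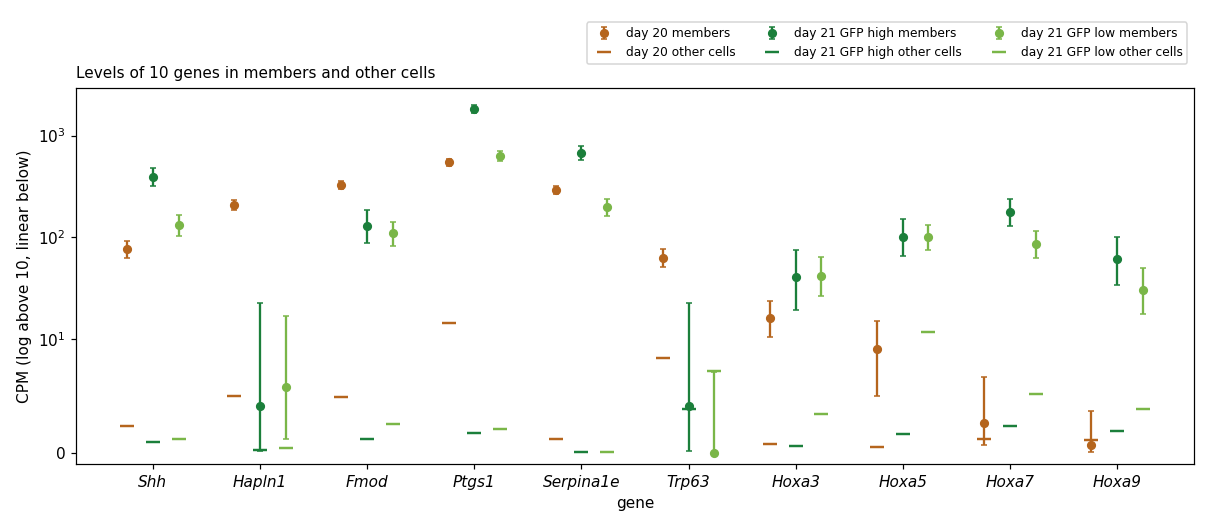
Summed CPM (log scale above 10, linear below) of 10 genes in members and in other cells of day 20, GFP high and GFP low, with exact Poisson 95% intervals of counting. Among the libraries shown, Hapln1 is high only in day 20 members, at 208 CPM, and Hoxa7 is high in GFP high members, at 179 CPM, and in GFP low members, at 86.4 CPM.

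The single day 16 member held 44455 UMIs, with 124 of Car3, 30 of T, 78 of Lgals3, 39 of Krt19, 30 of Hapln1, 31 of Egfp and none of Atoh1, and it also held 127 of the neuronal tubulin gene Tubb3. It is a description of 1 cell.

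Genes of caveolae and vacuoles were higher in 2 of 10 at day 20, 7 of 12 in GFP high and 5 of 12 in GFP low. Cav1, the coat protein of caveolae, which are abundant in notochordal cells, had 214 CPM in day 20 members and 68.1 in other cells. The day 21 levels were 265 CPM in GFP high members and 2.96 in other cells, and 48.0 CPM in GFP low members and 6.16 in other cells. At day 20 mesenchyme held 124 CPM of it. Lysosome genes were higher in 1 of 12 at day 20, 8 of 12 in GFP high and 2 of 12 in GFP low, with none lower. Ctsb, a lysosomal protease, had 213 CPM in day 20 members and 172 in other cells. Its day 21 levels were 521 CPM in GFP high members and 131 in other cells, and 528 CPM in GFP low members and 185 in other cells. Glycolysis and hypoxia genes were higher in 1 of 14, 2 of 14 and 0 of 14 at day 20, GFP high and GFP low. Of all genes tested, 5.93%, 12.6% and 7.42% were higher in the same order. The glycolysis counts, and the lysosome count at day 20, are near these shares.

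RNA of dividing cells was found in few members, but at day 20 its level did not differ from other cells by the fold required. A UMI of Top2a or Mki67, genes of cell division, was found in 13 of 139 members at day 20, in 1 of 13 in GFP high and in 2 of 22 in GFP low. Top2a had 42.3 CPM in day 20 members and 39.7 in other cells. At day 21 its levels were 4.07 CPM in GFP high members and 17.0 in other cells, and 217 CPM in GFP low members and 78.1 in other cells. The GFP low value, which is called higher, came from 2 cells. Of the cell cycle list, 11 of 12 genes tested were neither higher nor lower at day 20 and 1 was lower. In GFP high 7 of 8 were lower, and in GFP low 5 of 14 were higher and 1 lower.

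The 10 genes lowest in day 20 members against other cells were Calb2, Smpx, Pvalb, Chl1, Acbd7, Nefl, Lcn2, Kera, Mlf1 and Dner. Calb2, a calcium-binding protein of neurons and hair cells, had no UMI in day 20 members, against 118 CPM in other cells, at least 60.6-fold lower when 3 UMIs are set for the members. In the libraries that did not rank these genes, Calb2 had 8.14 CPM in GFP high members and 759 in other cells, and 30.7 CPM in GFP low members and 250 in other cells, with no UMI in GFP low members once the 4 with RNA of another type were left out. Smpx, a small protein of muscle and hair cells, had no UMI in GFP high members, against 961 CPM in other cells, and 136 CPM in GFP low members, or 2.67 without those 4, and 327 in other cells. Chl1, a neural adhesion molecule, was not lower in GFP high, at 12.2 CPM in members and 9.28 in other cells. Nefl, a neurofilament, had 3.91 CPM in day 20 members and 208 in other cells.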

How the data were processed

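Droplet libraries of GFP-sorted organoid cells were deposited by the authors as counts of UMIs per gene and barcode, not normalized. Cell Ranger 6.1.0, Seurat 4.0.6 and the build mm10 are named per the submitters' processing notes, and Cell Ranger 6.1.2 per the file headers. The 4 libraries held 4277, 5619, 3844 and 4467 barcodes at day 16, day 20, GFP high and GFP low, of which 3496, 4553, 3544 and 3823 passed the filters, with 45954382 to 113244855 UMIs in total per library.

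UMIs were summed over members and over other cells, scaled to CPM, and set against each other with exact Poisson and conditional binomial intervals at 95% (scipy 1.17.1). No test fits 1 library a group, and intervals cover counting error only. Barcodes were not filtered for doublets, but Scrublet in Scanpy 1.11.5 scored them and the top 0.8% per 1000 barcodes were marked, since its automatic threshold called 1, 78, 3 and 4 cells. The members and the 38 gene lists were chosen with earlier results of these data known. Named genes were the 25 highest and 10 lowest by ratio at day 20, beside the largest changes of each list. The fold changes planned between members of GFP high and GFP low, and of day 20 and day 16, were not made, since GFP high and day 16 held under 20 members. The comparison within GFP high was added. Gene positions are those of GENCODE M21, matched for 459 of 461 genes, and scripts were tested on simulated data. Alternatives were other cell choices, mean CPM per cell, TMM scaling (edgeR 4.0.16), no CPM minimum and other cells in the members' UMI range.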

Additional observations from a re-analysis of the deposited data

How the results depend on the processing

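The share of members stayed within 2.64% to 3.25% at day 20, 0.367% to 0.411% in GFP high and 0.418% to 0.637% in GFP low over all choices of cells tried. At day 16 it was 0% once members with RNA of another cell type were left out, a choice made after the data were seen. With no CPM minimum, which tests more genes, the counts were 3800 lower at day 20, 6780 lower in GFP high, and 1315 higher and 4363 lower in GFP low. With none, the median log2 ratio was −0.082 for the bone list at day 20, 0.58 for the cyclin list in GFP high, −0.0018 for the floor plate list in GFP low and −0.078 for the Hox list in GFP low, each with its sign turned. Top2a in GFP high turned to 0.27 against other cells in the members' UMI range, and the cause was not tested. Hoxb1 in GFP low, whose UMIs came from 1 cell, turned to −1.92 without the cells of highest Scrublet score and to −1.93 without the members with RNA of another cell type. TMM scaling moved the median of all genes by 0.23, 0.08 and 0.12 on the log2 scale for day 20, GFP high and GFP low. It gave 745 genes higher and 1351 lower at day 20, where CPM gave 556 and 1791. It gave 1438 and 3436 in GFP high, where CPM gave 1317 and 3659, and 996 and 1661 in GFP low, where CPM gave 790 and 1937. Without the members with RNA of another cell type, 1042 genes were higher and 2876 lower in GFP low. Over all alternatives 6156 gene values stayed within the limit set for them, 689 moved past it and 3 turned sign, and of the list medians 744 stayed, 44 moved and 4 turned. The alternatives listed for contrasts between members of different libraries were not run, since those contrasts were not made. No paired analysis was possible because each group holds 1 library. The number of members sets what a count of 0 can show, since 3 UMIs stand for 67.5 CPM in the day 16 member, 1.95 CPM at day 20, 12.2 CPM in GFP high and 5.76 CPM in GFP low.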

Other observations

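The relatives of the rule's genes were not generally high in members. Of 15 other carbonic anhydrases, Car14 was higher in GFP low, at 21.1 CPM in members and 4.39 in other cells, and Car13 and Car14 were higher at day 20 only without the members with RNA of another cell type. Car2 was higher at day 20, at 20.2 CPM in members and 2.30 in other cells, and Car9, an enzyme induced by low oxygen, had 20.2 CPM in day 20 members and 79.97 in other cells. Of 7 other galectins, Lgals1 was higher at day 21, at 895 CPM in GFP high members and 46.3 in other cells, and 895 CPM in GFP low members and 123 in other cells, while at day 20 it had 1692 CPM in members and 1393 in other cells. Of 16 other T-box genes none was higher, and 9, 13 and 13 were at 0 in members of day 20, GFP high and GFP low. Only 5, 2 and 2 of them were tested in the same order. Genes of the node and of motile cilia were lower in 4 of 5, 11 of 12 and 6 of 11 at day 20, GFP high and GFP low, or 9 of 11 in GFP low without the members with RNA of another cell type. Of all genes tested, 19.1%, 35.1% and 18.2% were lower.

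Fabp7, a fatty acid binding protein of radial glia, was higher in each library, at 447 CPM in day 20 members and 35.4 in other cells, 305 CPM in GFP high members and 32.1 in other cells, and 209 CPM in GFP low members and 90.2 in other cells. The other glia and neural crest genes that were tested were not higher. Over the 139 day 20 members, the genes whose level per cell went most with that of T were Nrp2, App, Lyst, Slc7a2 and Hmcn1, at Spearman correlations of 0.39 to 0.42, and those most like Car3 were Sgk1, Krt19, Cd24a, Ecrg4 and Egfp, at 0.38 to 0.42. These were the highest of 3250 genes compared, the cells share a library, and the counts are sparse, so they are a description.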
